A study of Mus musculus with 8 samples.

Results

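Imprinted growth genes are transcribed from a single parental allele and set the pace of fetal and placental growth. The genes followed here were H19, Igf2, Mest, Peg3, Plagl1, Dlk1, Cdkn1c, Grb10, Ndn and Snrpn, 10 genes taken by name, and every probe that the platform annotation gives them. Of these, 9 genes had a probe, 14 probes in all, out of 25608 probes and 16559 genes on the array. No probe carried the name H19, so H19 was not analysed here. The members were Igf2 and Dlk1 (ligands of growth and differentiation), Cdkn1c and Grb10 (growth inhibitors), Mest, Ndn and Snrpn, and the zinc finger genes Peg3 and Plagl1.

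The arrays were Illumina MouseRef8 v2 chips, on which labelled RNA binds gene-specific probes. Both sources of mouse RNA, embryonic fibroblasts (MEFs) and liver, were covered in 4 genotypes: Dnmt2-/-, Nsun2-/-, double knockout (both genes) and wild-type. Dnmt2, also called Trdmt1, and Nsun2 are methyltransferases that modify cytosines of transfer RNAs. The MEFs were taken from embryos at day 13.5, immortalized with the large-T antigen of SV40, a viral oncoprotein, and used at passage 9, while the livers came from mice aged 2 months; all 8 samples carried the strain label CBA/C57BL6j x B6;129. Each of the 8 groups had 1 array, so a genotype in MEFs rests on 1 immortalized cell line and a genotype in liver on 1 RNA sample. The sources used here do not say whether animals were pooled.

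In mammals the silent allele of an imprinted gene is marked in the germ line, mostly by DNA methylation of a nearby control region, and the mark is kept through development. Many paternally expressed members promote growth, as Igf2 does through the type 1 insulin-like growth factor receptor, and many maternally expressed members restrain it, as Cdkn1c does by inhibiting cyclin-dependent kinases. Several of them are strongly expressed before birth and are turned down in most organs afterwards, the liver included. The arrays do not separate the parental alleles, so the values below are totals of both.

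Between 13019 and 13409 probes were detected (detection p-value under 0.01) on the MEF arrays and between 11585 and 11688 on the liver arrays. Of 9 fibroblast markers with a probe, 9 were detected on each MEF array and 4 to 6 on each liver array. Of 10 hepatocyte markers, 1 to 3 were detected on a MEF array and 9 on each liver array. Endothelial and blood cell markers were detected in 1 or 2 of 7 cases on a MEF array and in 5 or 6 of 7 on a liver array. Log2 intensities of the double knockout MEF array correlated across probes at r = 0.978 to 0.979 with the other MEF arrays, which correlated with each other at 0.986 to 0.989. The Nsun2 probe had log2 signals of 5.14 in Dnmt2-/- and 5.36 in wild-type MEFs and fell below detection in the MEFs without Nsun2. Where the Trdmt1 probe lies relative to the deleted part is unknown, which makes it no check of genotype; it was detected in Dnmt2-/- (5.09) and double knockout MEFs (4.64) and on no other array. Y-linked Eif2s3y read 6.78 in Dnmt2-/- and 7.85 in wild-type MEFs, and neither MEF array without Nsun2 detected it, so sex-linked expression and Nsun2 loss cannot be told apart in MEFs. In liver the Nsun2 probe went undetected on the array labelled Dnmt2-/- (4.41), against 5.35 in wild-type liver. It was also undetected on the Nsun2-/- (4.10) and double knockout (4.19) livers. The Dnmt2-/- label is therefore unsettled, and the Dnmt2-/- liver differences and every limma genotype estimate that uses the livers rest on it. With this array left out, limma still called 7 members in MEFs against liver, a comparison of sample types that does not bear on the label. Of all 10491 genes it then called 3738 higher and 2793 lower, so such a call is common. Dlk1 and Mest, among the 7, had to differ through the detection filter, as given below.

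Promoter windows of 4 members are printed because these members differed at least 2-fold between a knockout MEF array and wild-type MEFs. The windows hold 300 bases around a transcription start, written 5′ to 3′ in the direction of transcription, from RefSeq on build GRCm38.p6. Each CG dinucleotide, the site of DNA methylation, is in capitals. Whether these windows lie in a control region that carries an imprint was not tested. For genes with several windows, the one with the most CG is shown.
Igf2, chr7:142658755-142659054, - strand: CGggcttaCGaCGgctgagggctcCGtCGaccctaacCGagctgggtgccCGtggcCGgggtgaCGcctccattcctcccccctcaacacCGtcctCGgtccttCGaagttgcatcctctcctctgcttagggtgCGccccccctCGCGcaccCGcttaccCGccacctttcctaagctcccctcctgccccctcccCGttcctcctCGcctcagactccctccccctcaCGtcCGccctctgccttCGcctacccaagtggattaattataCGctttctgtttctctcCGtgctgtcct
Dlk1, chr12:109452573-109452872, + strand: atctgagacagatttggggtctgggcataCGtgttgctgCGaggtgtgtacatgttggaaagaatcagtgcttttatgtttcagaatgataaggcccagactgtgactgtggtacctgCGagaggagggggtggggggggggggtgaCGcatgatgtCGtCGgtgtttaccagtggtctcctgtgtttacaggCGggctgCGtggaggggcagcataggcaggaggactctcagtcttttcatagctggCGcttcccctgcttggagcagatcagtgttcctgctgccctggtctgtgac
Mest, chr6:30737800-30738099, + strand: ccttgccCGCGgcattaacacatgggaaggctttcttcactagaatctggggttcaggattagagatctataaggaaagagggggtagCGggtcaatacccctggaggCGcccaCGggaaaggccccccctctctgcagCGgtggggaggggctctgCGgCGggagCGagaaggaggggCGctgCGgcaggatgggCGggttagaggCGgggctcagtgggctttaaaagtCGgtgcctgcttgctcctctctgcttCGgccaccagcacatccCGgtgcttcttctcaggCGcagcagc
Grb10, chr11:12037371-12037670, - strand: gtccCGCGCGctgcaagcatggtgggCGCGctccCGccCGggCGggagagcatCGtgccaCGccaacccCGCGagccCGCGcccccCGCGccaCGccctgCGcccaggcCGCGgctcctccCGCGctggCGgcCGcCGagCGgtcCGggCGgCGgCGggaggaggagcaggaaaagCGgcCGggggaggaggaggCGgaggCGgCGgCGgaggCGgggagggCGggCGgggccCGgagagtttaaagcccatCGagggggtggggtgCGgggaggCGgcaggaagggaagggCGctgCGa
The Grb10 window held 45 CG, more than 98.1% of all 32851 windows, and the Igf2 window held 24, more than 80.0%. Mest had 17 (more than 68.6%) and Dlk1 had 9 (more than 54.2%), against a median of 7 over all windows. For genes with several windows, showing the one with the most CG raises its rank. The other Grb10 window held 9 CG, the other Igf2 windows 14, 7 and 2, and the other Mest windows 17 and 8. The table held windows for 8 members, and Cdkn1c and H19 were not among them. Letters GGGCGG on either strand, the core of a GC box, occurred in the printed Igf2, Mest and Grb10 windows and in 35.7% of all windows. The letters TATAAA occurred in none of the 4 printed windows and in 13.6% of all windows. The arrays measured neither methylation nor the start site in use.

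All comparisons below are on the log2 scale of background-corrected, quantile-normalized intensities, and for each gene the probe with the highest mean signal is used unless another is named. Levels of different probes cannot be set against each other, so each gene is compared with itself.

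The first comparison, MEFs against liver, sets embryonic fibroblasts against adult liver over 4 arrays each, 1 per genotype. Igf2, Cdkn1c, Grb10, Dlk1, Ndn and Mest were higher in MEFs, and Snrpn was lower. The rises ran from at least 8.02-fold for Mest, detected on 1 of 4 livers, to 47.4-fold for Igf2, and the fall of Snrpn was 3.12-fold. In bulk RNA, fewer cells of a type and less RNA per cell cannot be told apart, and the sample types differ in tissue, age and immortalization at once. Over all 10491 genes detected on at least 2 arrays, limma called 67.3% different at an adjusted p under 0.05, 38.7% higher and 28.6% lower in MEFs, so a call by itself is common here. Dlk1 and Mest passed the detection filter through MEF arrays, where they are high, and had to differ for that reason.

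Igf2, an insulin-like growth factor that drives fetal growth, had log2 signals of 11.93 in Dnmt2-/-, 10.82 in Nsun2-/-, 11.24 in double knockout and 9.46 in wild-type MEFs. In liver it had 5.29, 4.69, 5.69 and 5.50 in the same order of genotypes. Every liver array detected it, and the MEF and liver values did not overlap. The difference was 5.57 (SE 0.38, 95% interval 4.69 to 6.45, adjusted p = 3.85e-06 by limma), or 47.4-fold.

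Dlk1, a transmembrane ligand-like protein that holds back differentiation of adipocytes, had 10.14 in Dnmt2-/-, 9.36 in Nsun2-/-, 7.22 in double knockout and 9.49 in wild-type MEFs. All 4 livers lay between 4.11 and 4.17 and none detected it. Its mean in MEFs, 9.05 ± 1.27 (SD, n = 4), was at least 23.4-fold above liver, with liver set to the lowest signal of a detected probe; the measured liver mean was 4.15, and limma gave an adjusted p of 3.11e-05.

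Cdkn1c, an inhibitor of cyclin-dependent kinases, had 11.92, 11.58, 12.86 and 12.34 in Dnmt2-/-, Nsun2-/-, double knockout and wild-type MEFs. In liver the same genotypes had 6.81, 6.74, 6.42 and 6.54. The gap of 5.55 (SE 0.27, adjusted p = 4.63e-07 by limma) was 46.8-fold and far outside the spread of either sample type, 0.56 in MEFs and 0.18 in liver (SD, n = 4 each).

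Grb10, an adaptor that dampens signalling of the insulin and insulin-like growth factor receptors, had 11.34, 11.54, 10.57 and 11.99 in Dnmt2-/-, Nsun2-/-, double knockout and wild-type MEFs. The livers had 6.04, 6.26, 6.36 and 5.97. Its difference was 5.20 (SE 0.26, adjusted p = 5.49e-07 by limma), 36.8-fold. In MEFs the wild-type array was the highest of the 4 and in liver it was the lowest.

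Mest, which encodes an alpha/beta hydrolase-fold protein and is named for its expression in mesoderm, had 7.28, 6.55, 8.81 and 7.58 in Dnmt2-/-, Nsun2-/-, double knockout and wild-type MEFs. The livers had 4.70, 4.36, 4.23 and 4.34, and only the Dnmt2-/- liver passed detection. The difference was 3.15 (SE 0.39, adjusted p = 0.000137 by limma). The other probes of Mest were detected on 4 of 4 MEF arrays and no liver array, with differences of 2.78 and 1.61.

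Ndn, a MAGE-family protein that restrains the cell cycle, had 10.02, 10.51, 10.51 and 10.89 in Dnmt2-/-, Nsun2-/-, double knockout and wild-type MEFs, against 6.16, 5.99, 6.20 and 6.11 in liver. Its spread in MEFs was 0.36 (SD, n = 4), and its difference was 4.37 (SE 0.19, adjusted p = 2.38e-07 by limma), 20.6-fold.

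Snrpn, whose protein SmN belongs to the core of the splicing machinery, ran the other way. It had 7.42, 7.01, 6.91 and 7.78 in Dnmt2-/-, Nsun2-/-, double knockout and wild-type MEFs, and 9.06, 8.57, 8.81 and 9.24 in liver. The difference was −1.64 (SE 0.14, adjusted p = 1.57e-05 by limma), and the sample types did not overlap. A dimmer Snrpn probe, detected on 2 of 4 MEF arrays and 4 of 4 livers, had a difference of −0.40.

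Peg3, a zinc finger protein, was detected on none of the 8 arrays, with signals of 4.11 to 4.50 in MEFs and 4.09 to 4.44 in liver. Plagl1, a zinc finger transcription factor that regulates other imprinted genes in mouse, had 3 probes. The brightest was detected on no array, and only the Dnmt2-/- liver passed detection by another, at 4.89. Neither gene entered a test.

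**Figure D1:**
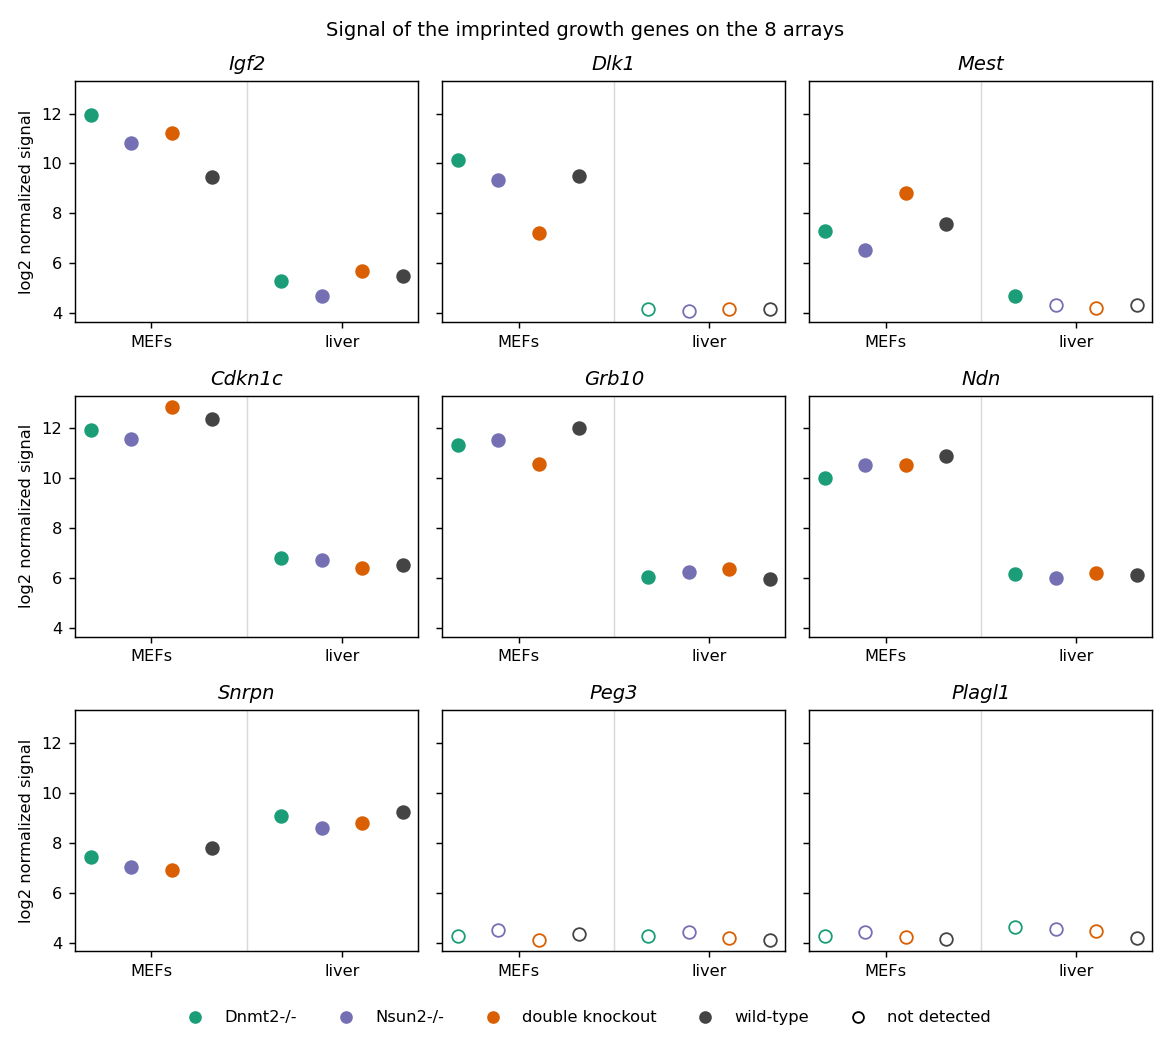
Log2 normalized signal (y axis) of the 9 measured genes on the 8 arrays, 1 point per array, with MEFs on the left and liver on the right of each panel, coloured by genotype; open points were not detected. Igf2, Dlk1, Mest, Cdkn1c, Grb10 and Ndn sit higher in every MEF array than in any liver array, Snrpn sits lower, and Peg3 and Plagl1 stay near background.

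Other imprinted genes did not share one direction between the sample types. Of 56 listed, 44 had a probe and 26 were tested; 6 were higher and 11 lower in MEFs at an adjusted p under 0.05 by limma, with a median difference of −0.08; over all genes 38.7% were higher and 28.6% lower, with a median of 0.14. Scaling each array to the same median, which moves the median of all genes by 0.37, gave 10 higher and 7 lower. The amino acid decarboxylase Ddc, which neighbours Grb10, was detected on no MEF array and was at least 67.5-fold lower in MEFs than in liver. The transporter Slc22a18, of the same cluster as Cdkn1c, was detected on 1 MEF array and was at least 59.9-fold lower. The amino acid transporter Slc38a4 (−3.29) and the paraoxonase Pon3 (−1.90) were lower in MEFs on arrays that all detected them. The phospholipid flippase Atp10a and the thyroid hormone deiodinase Dio3, of the same cluster as Dlk1, were detected on no liver array and were at least 4.27-fold and 3.60-fold higher in MEFs. The histone chaperone Nap1l4 was higher by 1.28 and Igf2r, the receptor that clears IGF2, by 1.06. Ddc and Slc22a18 passed the detection filter through liver, and Atp10a and Dio3 through MEFs, and had to differ for that reason. The named genes kept their direction under every setting tried.

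**Figure D2:**
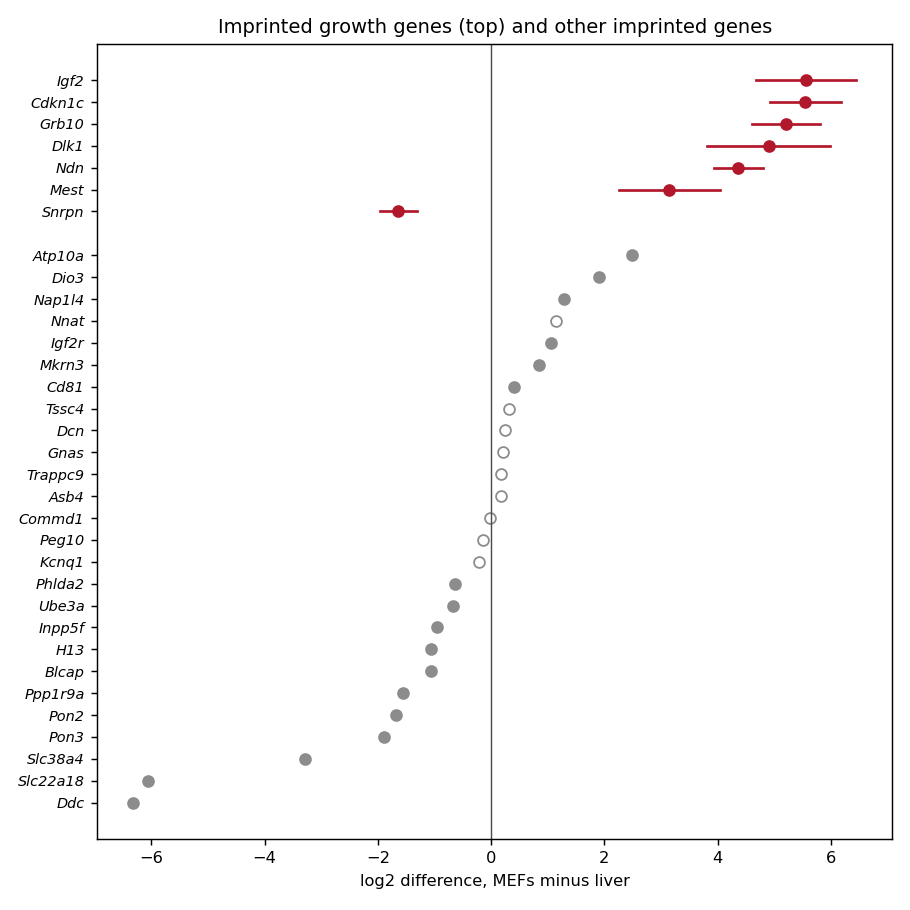
Log2 difference, MEFs minus liver (x axis), of the 7 members tested (red, with 95% intervals from limma) and of 26 other imprinted genes (grey; filled where the adjusted p was under 0.05); differences are as measured, also where one sample type was undetected. Members from Mest at 3.15 to Igf2 at 5.57 lie on the MEF side and Snrpn lies at −1.64, while the other imprinted genes spread from −6.32 to 2.49.

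Of 15 tested genes of the insulin-like growth factor pathway, 7 were higher and 6 lower in MEFs by limma, with a median of 0.37; over all genes 38.7% were higher and 28.6% lower, with a median of 0.14. The postnatal growth factor Igf1 had a difference of −6.22, opposite in sign to Igf2, and the binding protein Igfbp2 one of −3.52. Igfals, the binding protein of the ternary complex, and Igfbp1 were detected on no MEF array and were at least 165-fold and 4.12-fold lower in MEFs than in liver. Igfbp3 was higher in MEFs by 3.33 and Igf2bp3, which binds Igf2 messenger RNA, by 4.09. Igfbp6 and Igf2bp1, a relative of Igf2bp3, were detected on no liver array and were at least 18.5-fold and 13.3-fold higher in MEFs. Genes undetected in one sample type passed the filter through the other and had to differ. The liver value of Igf2bp3 varied by genotype: 6.01 in Dnmt2-/-, 5.54 in Nsun2-/-, 7.06 in double knockout and 5.55 in wild-type liver.

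The remaining comparisons ask what differs when Dnmt2, Nsun2 or both are lost. Each knockout array was set against wild-type MEFs or wild-type liver, whichever matched, with no replicate check and no test. In MEFs, Igf2 was higher in all 3 knockout arrays, while Dlk1, Mest and Grb10 differed at least 2-fold in the double knockout, and in liver no member differed 2-fold from wild-type. The 3 comparisons of a sample type share their wild-type array, so a wild-type value that stands apart moves all of them together.

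In Dnmt2-/- MEFs, Igf2 was 5.51-fold higher than in wild-type MEFs, with deposited intensities of 4345 and 1061. It was the 1 member of 7 past 2-fold, in a comparison where 3.62% of 9742 genes were, 2.73% higher and 0.893% lower. Dlk1 differed by 0.65, and the other 5 members were at −0.29 (Mest) to −0.87 (Ndn). The members' median was −0.36, against −0.04 for all genes.

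In Nsun2-/- MEFs, Igf2 was 2.56-fold higher, with an intensity of 2131 against 1061 in wild-type MEFs. Mest was 2.04-fold lower, and these were 2 of 7 members against 2.62% of all 9677 genes, 1.94% higher and 0.682% lower. Cdkn1c and Snrpn were both at −0.77, Grb10 at −0.46, Ndn at −0.38 and Dlk1 at −0.13. The members' median was −0.46 and that of all genes −0.04. The 2-fold difference of Mest was lost without background correction (−0.64), with a larger offset (−0.81), with the mean of its probes (−0.94) and in the authors' deposited table (−0.63).

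The double knockout MEFs had 4 of 7 members past 2-fold, against 6.82% of all 9683 genes, 4.0% higher and 2.82% lower. Dlk1 was 4.80-fold lower, with an intensity of 293 against 1077 in wild-type MEFs, and Grb10 was 2.69-fold lower, with 1915 against 4563. Igf2 was 3.42-fold higher (2862 against 1061) and Mest 2.35-fold higher (698 against 371). Cdkn1c was at 0.52, Ndn at −0.38 and Snrpn at −0.87. Mest fell just under 2-fold without background correction (0.95) and in the authors' deposited table (0.94).

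Fibroblast markers also differed on this array. The log2 of their summed linear signal, in which the brightest markers weigh most, was 14.61 in Dnmt2-/-, 14.11 in Nsun2-/-, 13.31 in double knockout and 14.01 in wild-type MEFs. Of 9 markers, 3 were at least 2-fold lower in double knockout than in wild-type MEFs, against 2.82% of all genes. They were the surface glycoprotein Thy1 (−4.37), the collagen Col3a1 (−1.47) and the collagen-crosslinking enzyme Lox (−1.33). Over the list, 4 markers were higher and 5 lower in double knockout than in wild-type MEFs, with a median of −0.21, against −0.03 for all genes. In Dnmt2-/- MEFs, where Igf2 was highest, 9 of 9 were higher, with a median of 0.67, against −0.04 for all genes. Only 1 of the 9 was past 2-fold there, Col3a1 (1.07), where 2.73% of all genes were at least 2-fold higher. Without background correction Col3a1 was under 2-fold (0.91). The part of these markers in the values of Dlk1, Grb10, Igf2 and Mest was not tested. On the double knockout MEF array the hepatocyte markers detected numbered 3 of 10 and the endothelial and blood markers 1 of 7.

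**Figure D3:**
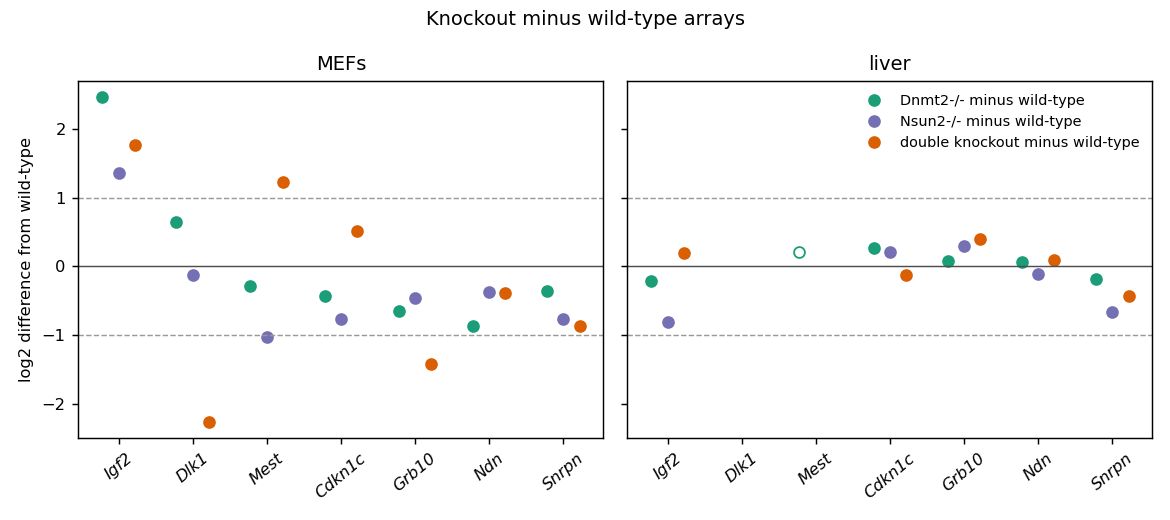
Log2 difference of each knockout array from the wild-type array (y axis) for 7 members in MEFs (left) and liver (right), coloured by knockout; dashed lines mark 2-fold, open points are bounds and undetected pairs are left out. Igf2 lies above 1 in all 3 MEF comparisons, Dlk1 lies at −2.26 in the double knockout, and no liver point passes 2-fold.

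All 3 Mest probes ordered the MEF arrays in the same way, with the double knockout highest and Nsun2-/- lowest. In double knockout against wild-type MEFs the probes differed by 1.23, 1.32 and 0.94, from the brightest to the dimmest. In Nsun2-/- against wild-type MEFs they differed by −1.03, −0.59 and −1.20, and for Dnmt2-/- MEFs by −0.29, −0.28 and −0.68. The probes may share transcript sequence, so they are not independent samples. For Snrpn, the dimmer probe had differences of 0.34 (Dnmt2-/-), 0.33 (Nsun2-/-) and 0.15 (double knockout) in MEFs, opposite in sign to the brighter probe's −0.36, −0.77 and −0.87, and lay near background.

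**Figure D4:**
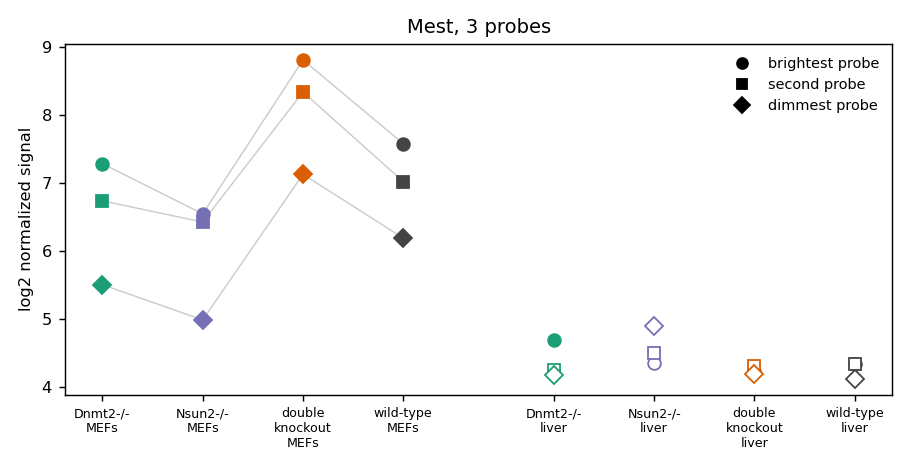
Log2 normalized signal (y axis) of the 3 Mest probes on each of the 8 arrays (x axis), with marker shape for the probe and colour for the genotype; open markers were not detected and lines join the MEF values of a probe. Each probe is highest in double knockout MEFs and lowest in Nsun2-/- MEFs, and the liver markers lie between 4.13 and 4.89.

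Set against the single knockouts, the double knockout MEFs stood apart for Dlk1 and Mest. Dlk1 differed by −2.13 from Nsun2-/- MEFs and by −2.91 from Dnmt2-/- MEFs, and Mest by 2.26 and 1.52. Cdkn1c was at 1.28 and 0.95, Grb10 at −0.97 and −0.77, and Igf2 at 0.42 and −0.69, against Nsun2-/- and Dnmt2-/- MEFs in that order. At least 2-fold differences were found for 6.62% of all genes against Nsun2-/- MEFs and for 6.29% against Dnmt2-/- MEFs.

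Loss of Dnmt2 in MEFs was estimated over separate pairs of arrays: the Dnmt2-/- array with the wild-type one, and the double knockout array with the Nsun2-/- one. The SE pools the departures of MEF and liver arrays, so it may be too small for MEFs where liver values vary little. Grb10 was lower in both pairs (−0.65 and −0.97), with an estimate of −0.81 (SE 0.18, 95% interval −1.28 to −0.35, unadjusted p = 0.00633, adjusted p = 0.524 by limma). Igf2 was higher in both, by 2.46 and 0.42, with an estimate of 1.44 (SE 0.55, 95% interval 0.03 to 2.85, adjusted p = 0.766). The pairs had opposite signs for Dlk1 (0.65 and −2.13), Mest (−0.29 and 2.26) and Cdkn1c (−0.43 and 1.28). No member and none of 10491 genes passed an adjusted p of 0.05 in this limma fit, and 677 genes had an unadjusted p under 0.05.

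Loss of Nsun2 in MEFs was estimated likewise, from the Nsun2-/- array with the wild-type one and the double knockout array with the Dnmt2-/- one. Dlk1 was at −0.13 and −2.91, with an estimate of −1.52 (SE 0.64, 95% interval −3.16 to 0.11, adjusted p = 0.996 by limma). Its liver values lay at background (SD 0.03, n = 4), so this SE and interval may be too narrow for MEFs. Grb10 was at −0.46 and −0.77 (estimate −0.62, SE 0.18, adjusted p = 0.996), and Snrpn at −0.77 and −0.51 (estimate −0.64, SE 0.20, adjusted p = 0.996). Here 0 of 10491 genes passed by limma, with 515 at an unadjusted p under 0.05. The intervals leave room for 2-fold effects on Dlk1, Grb10, Snrpn, Mest, Igf2 and Cdkn1c, so a p that missed the threshold does not show that they were alike.

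In liver, 6 members could be compared in Dnmt2-/- and 5 in each of the other knockouts, and 0 were 2-fold different from wild-type, against 2.36%, 2.89% and 3.1% of all genes in Dnmt2-/-, Nsun2-/- and double knockout livers. Igf2 had the largest difference, −0.81 in Nsun2-/- liver, against −0.22 in Dnmt2-/- and 0.19 in double knockout livers. Its intensities there were 112, 103 and 116 in Dnmt2-/-, Nsun2-/- and double knockout livers and 112 in wild-type liver, close to background. Snrpn was at −0.18, −0.67 and −0.43, and Grb10 at 0.08, 0.29 and 0.40, in the same order. Cdkn1c was at 0.27, 0.20 and −0.12, and Ndn lay within 0.12 of wild-type in all 3. The genotype label of the Dnmt2-/- liver array is unsettled, as said above.

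Effects of genotype in MEFs and liver were also set against each other. These estimates, and those over both sample types, take the unsettled label of the Dnmt2-/- liver array as given. For Grb10, the effect of Dnmt2 loss differed by −0.90 (SE 0.26, unadjusted p = 0.0165, adjusted p = 0.896 by limma) and that of Nsun2 loss by −0.92 (SE 0.26, unadjusted p = 0.0153, adjusted p = 0.917), MEFs minus liver. The other 6 members had unadjusted p-values of 0.157 and above by limma, and no member passed an adjusted p of 0.05. The intervals were wide, −3.80 to 0.81 for Dlk1 with Nsun2 loss, so the sample types were not shown to be alike. Dlk1 was detected on 0 of 4 livers and Mest on 1 of 4. Background therefore sets their liver effects, and the comparison cannot decide for these genes. Over both sample types together, Dnmt2 loss gave Igf2 an estimate of 0.92 (SE 0.38, adjusted p = 0.977) and Nsun2 loss gave Snrpn −0.55 (SE 0.14, unadjusted p = 0.0048, adjusted p = 0.965 by limma). The dimmer Snrpn probe differed from wild-type by 0.33 in Nsun2-/- MEFs and 0.06 in Nsun2-/- liver, opposite in sign to the brighter one. In double knockout against Dnmt2-/- arrays it was lower, as the brighter one was, in MEFs (4.52, undetected, against 4.71) and in liver (4.86 against 5.32). The dimmer probe thus gave no single direction. Of all genes, 0 passed in either fit, with 419 and 442 at an unadjusted p under 0.05.

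Among 23 other imprinted genes compared in Dnmt2-/- MEFs, 2 were at least 2-fold higher and 0 lower, against 2.73% and 0.893% of all genes: Dio3, which inactivates thyroid hormone, by 2.04, and the proteoglycan decorin, Dcn, by 1.25. Dio3 (1.67) and Dcn (1.10) were also past 2-fold in Nsun2-/- MEFs, 2 of 24 compared, where 2.62% of all genes were. Without background correction Dio3 came to 0.94 there, and with scaling to the same median Dcn came to 0.95. In double knockout MEFs, 4 of 22 were past 2-fold, against 6.82% of all genes: Dcn at −2.51 and Dio3 at −1.12, and Nnat, a small membrane proteolipid gene, at 2.34 and Atp10a at 1.02. Without background correction Dio3 (−0.39), Atp10a (0.57) and Nnat (0.996) fell under 2-fold, and Dcn did not under any setting tried. The list's medians were 0.15 for Dnmt2-/-, 0.08 for Nsun2-/- and 0.04 for double knockout MEFs. In Dnmt2-/-, Nsun2-/- and double knockout livers, 0 of 21, 21 and 20 other imprinted genes passed 2-fold, against 2.36%, 2.89% and 3.1% of all genes. Kcnq1, undetected in wild-type liver (4.48), had 5.47 in Nsun2-/- liver and was at least 1.96-fold higher there, so a 2-fold difference is not excluded.

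**Figure D5:**
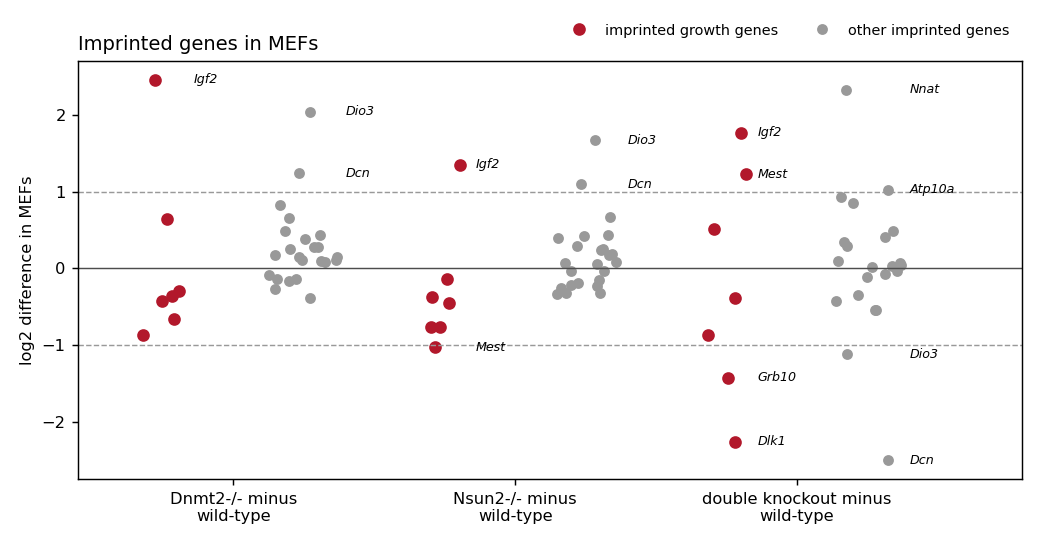
Log2 difference from wild-type MEFs (y axis) of the imprinted growth genes (red) and of other imprinted genes (grey) in each knockout, 1 point per gene, with small sideways shifts for legibility and dashed lines at 2-fold. Genes past 2-fold are named; Dcn and Dio3 lie above 1 in both single knockouts and below −1 in the double knockout.

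In the insulin-like growth factor pathway, genes that act beside Igf2 also differed in MEFs. Igfbp2 had 8.24 in Dnmt2-/-, 5.54 in Nsun2-/-, 8.63 in double knockout and 5.41 in wild-type MEFs, high on both arrays that lack Dnmt2. Igfbp5 had 6.16, 5.86 and 6.82 in the knockouts and 9.10 in wild-type MEFs, low in all 3 knockouts. Igfbp3 had 9.85, 9.51, 6.65 and 8.45, and Igf1 had 5.96, 5.94, 5.06 and 6.57, in the same order. Of 13 pathway genes compared, 2 were at least 2-fold higher and 1 lower in Dnmt2-/-, 1 and 1 in Nsun2-/-, and 2 and 3 in double knockout MEFs, where 3.62%, 2.62% and 6.82% of all genes were past 2-fold. Without background correction the differences of Igf1 in double knockout MEFs (−0.64) and of Igfbp3 in Nsun2-/- MEFs (0.91) were under 2-fold. In double knockout liver, Igfbp1, a binding protein that rises in fasting, was 5.03-fold higher than in wild-type liver and Igf2bp3 2.86-fold higher, with Igf2 itself at 0.19; Igf2bp3 was under 2-fold without background correction (0.76).

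Genes whose 3 differences from wild-type MEFs lay nearest to those of a member were sought among 10426 genes detected on at least 1 MEF array, by the root mean square distance. Nearest to Igf2 were H2-D1 (0.12), Mapk13 (0.20) and H2-Q7 (0.35). For Mest they were Zfpm1 (0.09), Pparg (0.16) and Meis2 (0.19), and for Dlk1 Slco4a1 (0.23), Ptx3 (0.27) and Sfrp2 (0.32). Igf1 (0.11), Ywhaq (0.12) and Hmgcs1 (0.12) lay nearest to Grb10. All of these differences share the wild-type MEF array.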

How the data were processed

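The authors deposited 1 intensity and 1 detection p-value per probe and array, per the file headers, for 8 arrays; the intensities are linear and not normalized. The authors also deposited processed intensities, with a normalization that the sources used here do not describe; these served as an alternative. The normexp model (limma 3.58.1, R 4.3.3; offset 16, background from the detection p-values) removed background, and log2 values were then quantile-normalized across the 8 arrays. Precision is limited by the number of arrays.

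The platform annotation gave 1 symbol for 23898 of 25608 probes, and the probe with the highest mean stood for its gene. Members were taken by symbol. In comparisons of 1 array with 1, genes detected on either array entered, and an undetected value was raised to the lowest signal of a detected probe. Fits used limma with Benjamini-Hochberg adjustment over the 10491 genes detected on at least 2 arrays: sample type, Dnmt2 and Nsun2 (4 residual degrees of freedom), or both genotypes within each sample type (2). Their spread is the departure of arrays from that layout, not a spread between animals or cultures. The script was tested on simulated data.

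The members and gene lists were chosen with earlier results of these data known. All members are described; of each other list, the text names the genes with the largest differences among those past adjusted p 0.05 (MEFs against liver, at most 4 each way) or past 2-fold (knockouts, at most 4). Imprint maintenance factors and fetal liver genes are described among the other observations.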

Additional observations from a re-analysis of the deposited data

How the results depend on the processing

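In MEFs against liver, Igf2, Cdkn1c, Grb10, Ndn and Snrpn, detected on all 8 arrays, kept their direction and an adjusted p under 0.05 by limma under every alternative, including each array left out in turn. So did Dlk1 and Mest, which had to differ through the detection filter and add no support. The differences then ran from 1.48 to 3.51 for Mest, from 2.77 to 5.53 for Dlk1 and from 4.01 to 6.02 for Igf2. Those of Snrpn ran from −1.73 to −0.86, the last, under 2-fold, with scaling to the same median. No alternative gave a member an adjusted p under 0.05 for loss of Dnmt2 or Nsun2. In Nsun2-/- against wild-type MEFs, members at least 2-fold different numbered 2, and 1 without background correction, with an offset of 50, with the authors' deposited values or with the mean of a gene's probes; the member lost was Mest (−0.64, −0.81, −0.63 and −0.94). The cause was not tested. In double knockout MEFs Mest fell under 2-fold without background correction (0.95) and with the authors' values (0.94). No called value changed sign.

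Counts over all genes moved more. Genes at least 2-fold different numbered 353 (Dnmt2-/-), 254 (Nsun2-/-) and 660 (double knockout) in MEFs, and in the same order 211, 259 and 278 in liver. Without background correction they numbered 131, 95 and 254, and 32, 44 and 53; with an offset of 50, 198, 143 and 365, and 52, 75 and 73; with the authors' values, 133, 94 and 253, and 34, 47 and 53. Scaling to the same median gave 108, 142 and 152 in the livers, and quantile normalization within each sample type 99, 147 and 154. Scaling also moved the split of calls, to 5423 higher and 2145 lower from 4055 and 3005 in MEFs against liver, to 191 and 122 from 188 and 66 in Nsun2-/- MEFs, and to 65 and 43 from 98 and 113 in Dnmt2-/- liver; without background correction Dnmt2-/- MEFs had 112 and 19, against 266 and 87. For Dnmt2 loss in MEFs, scaling to the same median gave 5 genes past the threshold in place of 0, none a member.

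Each group has 1 array, so replicate numbers pair nothing, and arrays could be paired only by genotype. MEFs and liver were paired in that way in the fit with the interaction of the genotypes, which called 7 members. Of all 10491 genes that fit called 3987 higher and 2971 lower in MEFs. The files give no slide, so no slide block was fitted. Signals near 4 lie at background, so differences of Igf2 and Mest in liver are limited by it.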

Other observations

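Factors that keep imprints in place were mostly higher in MEFs than in liver: of 12 tested, 10 were higher and 2 lower by limma, with a median of 1.11; over all genes 38.7% were higher and 28.6% lower, with a median of 0.14. Uhrf1, which brings the maintenance methyltransferase to replicating DNA, was detected on 1 liver array and was at least 127-fold higher in MEFs. Dnmt1, that methyltransferase, was higher by 4.004, the chromatin protein Smchd1 by 2.69 and the corepressor Trim28 by 2.67. The lower ones were Dnmt3b (−1.43) and Ctcfl (−0.61, detected on 1 MEF array). Uhrf1 and Dnmt3l, the latter detected on no liver array, passed the detection filter through MEFs and had to differ for that reason. Ctcfl passed it through liver. With the wild-type MEF array left out, 7 factors were higher and 2 lower. Past 2-fold from wild-type were 0 of 11, 12 and 11 of these factors compared in Dnmt2-/-, Nsun2-/- and double knockout MEFs. In the livers they were 0 of 10, 10 and 11. Of all genes 3.62%, 2.62% and 6.82% were past 2-fold in MEFs and 2.36%, 2.89% and 3.1% in liver, so a 0 says little. Raising undetected values to the lowest detected signal can hide a 2-fold difference. Dnmt3l read 5.34 in wild-type and, undetected, 4.23 in double knockout MEFs.

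Of 11 genes listed for the fetal liver, 8 had a probe and 4 were detected on enough arrays to be tested. Igf2bp3 was higher in MEFs than in liver by 4.09, the proteoglycan Gpc3 by 2.72 and Zfhx3 by 0.90, and Zhx2, a repressor of fetal genes in mouse liver, was lower (−1.48). Gpc3 had a 3.37-fold higher level in Nsun2-/- than in wild-type MEFs and a 2.64-fold lower one in double knockout MEFs, the second under 2-fold without background correction (−0.88).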
